A study of Mus musculus with 10 samples.

Results

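Prostaglandin and leukotriene signalling was followed through 10 genes in innate lymphoid cells (ILCs) of mouse skin, out of 47643 genes listed per library. They were chosen by symbol for their roles, and all 10 were found in the files and passed the filter on low counts. They comprise the prostaglandin E2 receptor genes Ptger2 and Ptger4, the prostacyclin receptor gene Ptgir, the prostaglandin D2 receptor gene Ptgdr2, the cysteinyl leukotriene receptor gene Cysltr1, and 5 genes of synthesis, Ptgs2, Hpgds, Alox5, Alox5ap and Ltc4s. ILCs are tissue lymphocytes without rearranged antigen receptors. All 10 libraries came from the skin of adult B6 mice, for which the labels name no treatment. The groups were ILCs of the epidermis (3 libraries), dermal ILCs sorted as CCR6+ (2), dermal ILCs sorted as Sca1+ (2) and ILCs of the subcutaneous layer (3). The labels do not say whether libraries of a group came from different animals, so p-values measure the spread between libraries, which may be technical, and they do not give the other markers of the sort.

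Prostaglandins and leukotrienes are lipid mediators made from arachidonic acid that phospholipases release from membranes. Cyclooxygenases start the branch to prostaglandins, which dedicated synthases finish, and 5-lipoxygenase with its activating protein starts the branch to leukotrienes. The products leave the cell and act through G protein-coupled receptors. In skin and other barrier tissues, prostaglandin D2 and cysteinyl leukotrienes are known activators of type 2 ILCs, whereas prostaglandin E2 and prostacyclin are known to restrain them.

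The deposited expected counts summed to between 11627222 and 18118544 per library. The summed level of 6 general ILC genes, with none at 0 in any group, lay between 4906 and 8268 CPM (the count relative to the library total, scaled by TMM normalization) in all libraries. The summed level of 11 type 2 ILC genes was 1805 to 2240 CPM in epidermal, 4424 to 4675 in dermal CCR6+, 8087 to 8279 in dermal Sca1+ and 10275 to 11422 in subcutaneous libraries. Markers of other cells were present too. The 12 macrophage genes summed to 7.81 to 15.5 CPM in epidermal libraries, with Mrc1 and Fcgr1 at 0, and to 194 to 245, 364 to 724 and 4252 to 7974 CPM in dermal CCR6+, dermal Sca1+ and subcutaneous libraries. The 10 keratinocyte genes ran the other way, at 2786 to 7034 CPM in epidermal and 76.8 to 189.9 in subcutaneous libraries. Dermal CCR6+ and Sca1+ libraries lay between, at 1383 to 1983 and 1724 to 2046 CPM. The 11 T cell genes found in the files summed to 681 to 852 CPM in epidermal and 950 to 1050 in dermal CCR6+ libraries. Their sum was 556 to 661 CPM in dermal Sca1+ and 410 to 738 in subcutaneous libraries. Cd3g was their highest gene in epidermal and dermal CCR6+ ILCs (281 ± 54.8 and 417 ± 43.0 CPM). RNA of a pooled sort was measured, so fewer cells of a type and less RNA per cell cannot be told apart.

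Epidermal and subcutaneous ILCs differed in 7 of the 10 genes. Epidermal ILCs had more Ptger4 and Ptgdr2 RNA, and subcutaneous ILCs had more Ptger2, Ptgir, Ptgs2, Alox5 and Alox5ap RNA (edgeR adjusted p under 0.05). The median log2 fold change of the 10 genes was -2.50, against -0.02 over all genes tested, and 20.2% of the 16208 genes tested were called in this comparison (6.87% higher in epidermal, 13.3% higher in subcutaneous). Between epidermal and dermal CCR6+ ILCs only Alox5ap passed, 1 of 10 against 6.18% of all genes (5.19% in its direction). Between epidermal and dermal Sca1+ ILCs 4 passed, Ptger4 higher and Ptgir, Alox5 and Alox5ap lower in epidermal, against 11.4% of all genes (2.75% higher and 8.66% lower in epidermal). Dermal CCR6+ and subcutaneous ILCs differed in 5, with Ptger4 and Ptgdr2 higher in dermal CCR6+ and Ptgs2, Alox5 and Alox5ap higher in subcutaneous, against 7.46% of all genes (3.75% higher in dermal CCR6+, 3.71% higher in subcutaneous). Dermal Sca1+ and subcutaneous ILCs differed in 2, Ptgdr2 and Alox5, against 2.2% of all genes (1.21% higher in dermal Sca1+, 0.993% higher in subcutaneous). The 2 dermal populations differed in none by edgeR (0.642% of all genes called). At an unadjusted p under 0.05, for which the share of all genes is not given here, there were 4 of the 10. DESeq2 also called none there, and limma on log2 TPM called 1, Alox5. These comparisons share libraries and are not independent of each other. With so few libraries, groups that do not overlap were common. Depending on the comparison, 34% to 43.3% of all genes tested had no overlap between the libraries of the 2 groups.

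**Figure D1:**
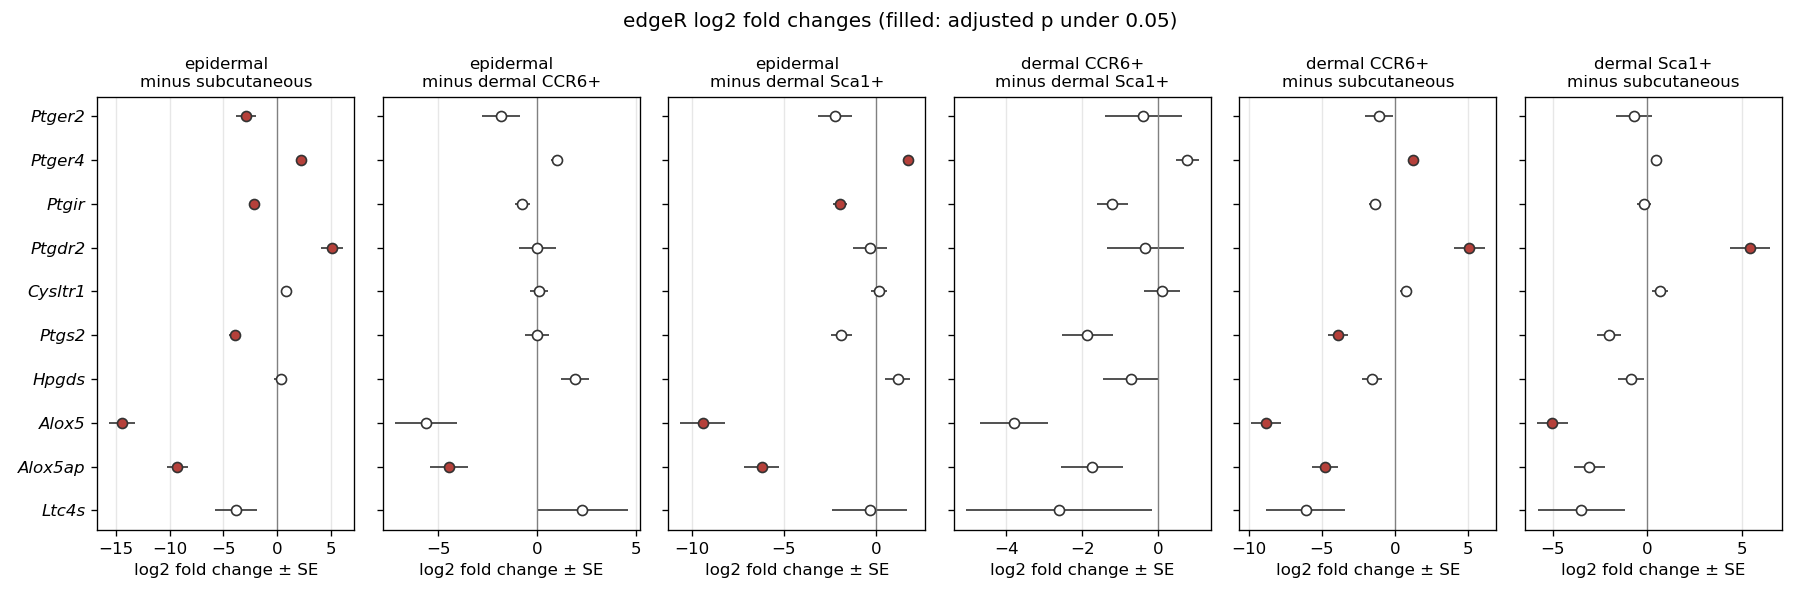
Fitted log2 fold changes (x axis, with the standard error as a bar) of the 10 genes in the 6 comparisons, each panel with its own scale, where filled points have an edgeR adjusted p under 0.05. Filled points are most frequent against subcutaneous ILCs, with Ptgdr2 to the right of 0 and Alox5 to the left in all 3 of those panels.

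The upstream windows of 4 genes are shown because these genes went in opposite directions between the layers, Alox5 and Ptgs2 being higher in subcutaneous and Ptger4 and Ptgdr2 higher in epidermal ILCs. Each is the 250 bases before the gene's start in RefSeq on GRCm38.p6, written 5′ to 3′ on the gene's strand, with matches to GGGCGG (SP1) or TGTGGT (RUNX) on either strand in capitals. The windows are chr6:116461179-116461428 on the minus strand for Alox5, chr1:150099781-150100030 on the plus strand for Ptgs2, chr15:5244188-5244437 on the minus strand for Ptger4 and chr19:10936910-10937159 on the plus strand for Ptgdr2.
Alox5: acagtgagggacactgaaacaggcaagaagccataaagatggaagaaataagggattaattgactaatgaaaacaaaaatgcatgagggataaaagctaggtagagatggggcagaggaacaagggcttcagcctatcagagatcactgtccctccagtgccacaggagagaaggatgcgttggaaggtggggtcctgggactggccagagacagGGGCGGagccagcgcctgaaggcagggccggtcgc
Ptgs2: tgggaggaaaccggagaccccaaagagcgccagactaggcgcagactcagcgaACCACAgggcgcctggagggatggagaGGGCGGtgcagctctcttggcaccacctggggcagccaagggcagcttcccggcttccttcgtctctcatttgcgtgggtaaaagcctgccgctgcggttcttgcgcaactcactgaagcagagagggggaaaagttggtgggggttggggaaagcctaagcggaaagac
Ptger4: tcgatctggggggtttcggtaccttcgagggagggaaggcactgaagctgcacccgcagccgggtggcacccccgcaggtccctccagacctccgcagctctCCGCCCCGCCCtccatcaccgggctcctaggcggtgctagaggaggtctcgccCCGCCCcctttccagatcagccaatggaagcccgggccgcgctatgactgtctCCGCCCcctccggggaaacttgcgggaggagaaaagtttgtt
Ptgdr2: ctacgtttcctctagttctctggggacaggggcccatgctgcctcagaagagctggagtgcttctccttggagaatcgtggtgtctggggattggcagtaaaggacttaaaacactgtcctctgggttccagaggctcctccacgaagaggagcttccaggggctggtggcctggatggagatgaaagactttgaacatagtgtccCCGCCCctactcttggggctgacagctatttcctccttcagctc

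GGGCGG, the core of the SP1 motif, was in all 4 of these windows. It began 35 bases before the start of Alox5, 170 before Ptgs2, 44 before Ptgdr2, and 148, 143, 95 and 42 before Ptger4, where the first and second matches share 1 base. Of the 8 genes with a window in the table it was in 5, the fifth being Ptgir, and 32.7% of the 32851 windows of this length in RefSeq held it. TGTGGT, the core of the RUNX motif, was in 3 of the 8 (Ptgs2, at 197 bases, Hpgds and Ltc4s), against 14.0% of all windows. A GATA match (AGATAA or TGATAA) was in the window of Ptger2, against 16.6% of all windows. The motifs of AP-1 (TGANTCA, in 6.7% of windows), CRE (TGACG, 17.8%), NF-kB (3.9%) and the TATA box (TATAAA, 12.4%) had no match in the 8. The Ptger4 window had a GC content of 66.8%, Ptgs2 61.6%, Ptgdr2 55.2% and Alox5 52.8%, against a median of 52.4%. Among the 4 genes shown, those higher in epidermal and those higher in subcutaneous ILCs thus both had windows with the SP1 core. The window of Ptger2, also called as higher in subcutaneous ILCs, had no SP1 match.

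In GENCODE M21 (GRCm38, the assembly of mm10) all 10 genes are protein coding. Alox5 lies at chr6:116410077-116461178 and Alox5ap at chr5:149264767-149288153. Ptgs2 lies at chr1:150100031-150108227, Ptger4 at chr15:5206661-5244187, Ptger2 at chr14:44988195-45003820 and Ptgdr2 at chr19:10937160-10942511. Ptgir is at chr7:16906490-16910905, Hpgds at chr6:65117293-65144908, Ltc4s at chr11:50236461-50238616 and Cysltr1 at chrX:106574346-106603679. No exon of another gene overlaps Ptgir, Ptgs2 or Alox5. Predicted genes that overlap Ptger2 (Gm17173), Ptger4 (Gm15937), Alox5ap (Gm19719) and Ltc4s (Gm26542) were at group means of at most 1.12 CPM.

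Ptger4 encodes EP4, a receptor for prostaglandin E2 that raises cyclic AMP, and its upstream window held 4 matches to GGGCGG. Its RNA was at 450.4, 274 and 295 CPM in the epidermal libraries, 166 and 177 in dermal CCR6+, 107 and 91.7 in dermal Sca1+, and 93.5, 65.0 and 54.0 in subcutaneous libraries. Epidermal libraries were above all others, dermal CCR6+ libraries came next, and dermal Sca1+ overlapped with subcutaneous libraries. The log2 fold change of epidermal over subcutaneous ILCs was 2.26 ± 0.265 (SE, edgeR adjusted p = 0.000205), and over dermal Sca1+ ILCs 1.77 ± 0.302 (adjusted p = 0.00373). Both calls held in all 19 alternatives, which were 9 other settings and each of the 10 libraries left out in turn. Dermal CCR6+ ILCs were 1.27 ± 0.279 above subcutaneous ILCs on the log2 scale (adjusted p = 0.0209). That call was lost without dermal CCR6+ replicate 1 (adjusted p = 0.0650) or 2 (0.128) or subcutaneous replicate 2 (0.0719) or 3 (0.0694). Of neighbours in the order of levels, epidermal and dermal CCR6+ ILCs (0.99 ± 0.291, adjusted p = 0.0792), the 2 dermal groups (0.78 ± 0.312, adjusted p = 0.398) and dermal Sca1+ and subcutaneous ILCs (0.49 ± 0.281, adjusted p = 0.462) did not pass the test. Ttc33, on the opposite strand, overlaps an exon of Ptger4, and the library kit does not mark the strand. Ttc33 was at 46.3 ± 17.2 CPM (SD, n = 3) in epidermal and 20.1 ± 8.48 (n = 3) in subcutaneous ILCs, and its part in the Ptger4 difference was not tested.

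Ptger2 encodes EP2, the other prostaglandin E2 receptor that raises cyclic AMP, and it was far less abundant. It stood at 1.95, 4.67 and 0.297 CPM in epidermal, 9.18 and 7.13 in dermal CCR6+, 17.9 and 3.27 in dermal Sca1+, and 14.7, 20.5 and 16.0 in subcutaneous libraries. Each epidermal library lay below each subcutaneous library, and the 2 dermal Sca1+ libraries spanned most of the range. Its log2 fold change of epidermal over subcutaneous ILCs was -2.89 ± 0.902 (edgeR adjusted p = 0.0461), and no other comparison passed. The call held in 11 of 19 alternatives. It was lost when any subcutaneous library, either dermal CCR6+ library or epidermal replicate 1 or 3 was left out, with adjusted p between 0.0557 (without dermal CCR6+ replicate 1) and 0.112 (without epidermal replicate 1).

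The make-up of prostaglandin E2 receptor RNA differed between the layers. On the deposited TPM scale, which corrects for gene length, Ptger4 made up 93.2% ± 2.65 (SD, n = 3) of the summed TPM of Ptger1 to Ptger4 in epidermal ILCs. The share was 86.0% ± 3.03 (n = 2) in dermal CCR6+, 69.9% ± 4.55 (n = 2) in dermal Sca1+ and 52.3% ± 7.26 (n = 3) in subcutaneous ILCs. The groups did not overlap, with 90.2% as the lowest epidermal and 58.3% as the highest subcutaneous library. The rest in subcutaneous ILCs was Ptger1 (23.9% ± 2.19), Ptger3 (12.3% ± 7.10) and Ptger2 (11.58% ± 3.51).

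Ptgir encodes the prostacyclin receptor, also coupled to cyclic AMP. It was at 80.2, 43.3 and 63.9 CPM in epidermal, 89.9 and 119 in dermal CCR6+, 317 and 165 in dermal Sca1+, and 369, 187 and 251 in subcutaneous libraries. Epidermal libraries were the lowest, dermal CCR6+ libraries came next, and dermal Sca1+ and subcutaneous libraries overlapped at the top. On the log2 scale the epidermal level was -2.11 ± 0.346 from subcutaneous ILCs (edgeR adjusted p = 0.00181), held in all 19 alternatives, and -1.95 ± 0.369 from dermal Sca1+ ILCs (adjusted p = 0.00676). The latter call was lost without dermal Sca1+ replicate 1, with -1.40 and an adjusted p of 0.0765. Dermal CCR6+ ILCs did not differ from epidermal (adjusted p = 0.296), dermal Sca1+ (0.323) or subcutaneous ILCs (0.0634) past the threshold. Of the summed TPM of 9 prostanoid receptor genes, Ptger4 was the main part in epidermal ILCs (74.6% ± 1.02, against 14.1% ± 2.10 for Ptgir). In subcutaneous ILCs Ptgir was the main part (66.4% ± 4.81, against 16.96% ± 3.19 for Ptger4).

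**Figure D2:**
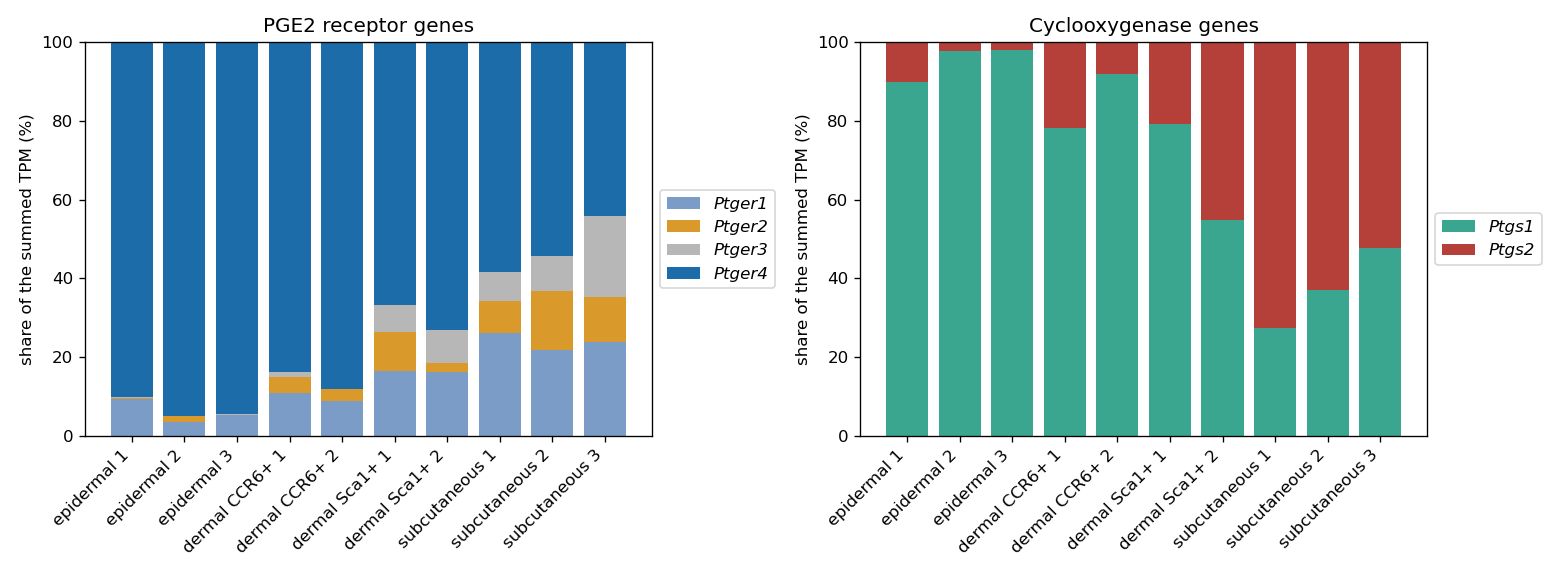
Share of the summed TPM (y axis, %) in each of the 10 libraries (x axis) for the 4 prostaglandin E2 receptor genes (left) and the 2 cyclooxygenase genes (right). Ptger4 takes at least 90.2% of receptor TPM in epidermal libraries and at most 58.3% in subcutaneous libraries, and Ptgs2 takes 52.2% to 72.6% of cyclooxygenase TPM in subcutaneous libraries.

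Ptgdr2 encodes CRTH2, the prostaglandin D2 receptor that draws type 2 lymphocytes, and it was close to undetected in the subcutaneous group. Its expected counts there, rounded, were 0, 22 and 1. In the other groups it was at 21.5, 19.99 and 14.7 CPM (epidermal), 18.5 and 19.0 (dermal CCR6+), and 23.3 and 23.8 (dermal Sca1+), against 0, 1.53 and 0.0793 CPM in subcutaneous libraries. No library of the other groups overlapped with a subcutaneous library, while epidermal and dermal CCR6+ libraries overlapped with each other. Relative to subcutaneous ILCs, the log2 fold changes were 5.09 ± 1.03 for epidermal (edgeR adjusted p = 0.00606), 5.10 ± 1.07 for dermal CCR6+ (adjusted p = 0.0167) and 5.42 ± 1.08 for dermal Sca1+ ILCs (adjusted p = 0.0301). It thus passed as lowest in subcutaneous ILCs in all 3 comparisons, as did 0.925% of all genes. The epidermal call held in all 19 alternatives. The dermal CCR6+ call was lost without dermal CCR6+ replicate 2 (adjusted p = 0.0604) or subcutaneous replicate 3 (0.0506) and when only these 2 groups were fitted (0.0697). The dermal Sca1+ call held in 13 of 19 alternatives and was lost, among others, without either dermal Sca1+ library (0.0842 and 0.0692) or subcutaneous replicate 3 (0.0900) and with only these 2 groups (0.0809).

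Ptgdr2 was thus lowest in the group in which the summed type 2 ILC list was highest. Of the 11 genes of that list, 8 were called as higher in subcutaneous than in epidermal ILCs (13.3% of all genes). The other direction was called for 2 of them (6.87% of all genes). Between dermal Sca1+ and subcutaneous ILCs 3 of the 11 were called, all higher in subcutaneous (0.993% of all genes). Il1rl1, Il5, Areg, Klrg1, Il2ra and Arg1 had their highest mean in subcutaneous ILCs. That of Gata3 and Rora was in dermal Sca1+ ILCs, and that of Il13, Il17rb and Bcl11b in epidermal ILCs. An exon of Ccdc86 overlaps Ptgdr2 on the opposite strand, and Ccdc86 was at 32.4 ± 1.89 CPM (n = 3) in epidermal, 36.1 ± 1.58 (n = 2) in dermal CCR6+, 36.2 ± 3.84 (n = 2) in dermal Sca1+ and 19.6 ± 3.97 (n = 3) in subcutaneous ILCs. Its part in the Ptgdr2 values was not tested.

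Cysltr1 encodes the main receptor for cysteinyl leukotrienes and was detected in every library. It was at 57.9, 44.9 and 74.2 CPM in epidermal, 36.4 and 74.8 in dermal CCR6+, 45.8 and 57.8 in dermal Sca1+, and 27.0, 50.2 and 19.5 in subcutaneous libraries. The groups overlapped throughout. No comparison passed the test, and the log2 fold change of epidermal over subcutaneous ILCs was 0.87 ± 0.390 (edgeR adjusted p = 0.147). Among the 4 leukotriene receptor genes its share of the summed TPM was 29.2% ± 4.495 (n = 3) in epidermal, 19.5% ± 7.05 (n = 2) in dermal CCR6+, 13.7% ± 3.51 (n = 2) in dermal Sca1+ and 5.70% ± 3.36 (n = 3) in subcutaneous ILCs. Ltb4r1, the high-affinity leukotriene B4 receptor gene, held 63.2% ± 5.72 in epidermal and 91.1% ± 4.84 in subcutaneous ILCs.

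**Figure D3:**
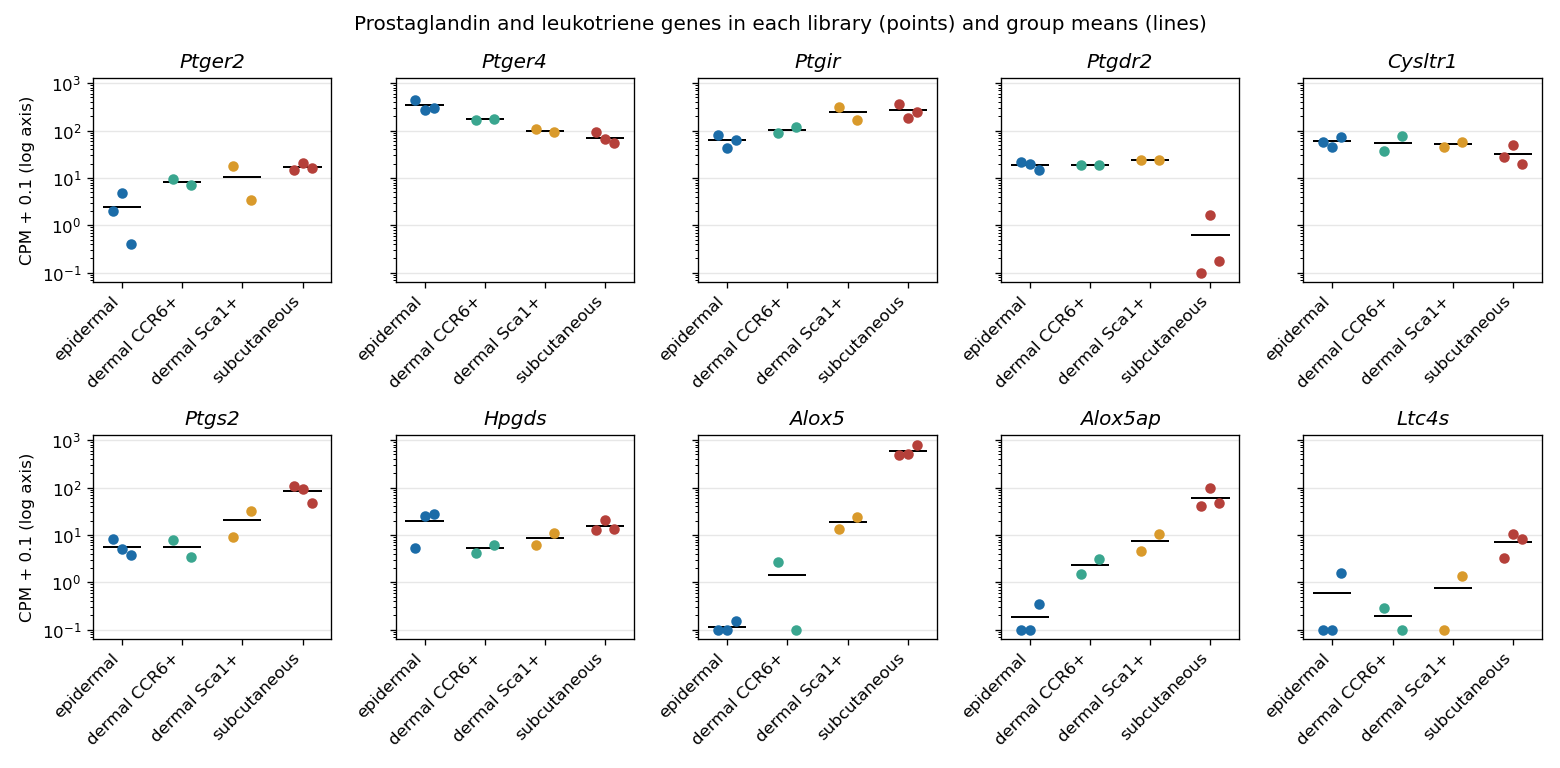
Level of the 10 genes in each library (points, CPM + 0.1 on a log axis) by group (x axis), with lines for group means of the same values. Receptor genes are in the upper row and synthesis genes in the lower row. Ptgdr2 falls below 2 CPM in the 3 subcutaneous libraries, and Alox5 runs from at most 0.0495 CPM in epidermal to at least 475 CPM in subcutaneous libraries.

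Ptgs2 encodes the inducible cyclooxygenase, which makes the common precursor of all prostaglandins. It was at 7.91, 4.88 and 3.72 CPM in epidermal, 7.77 and 3.30 in dermal CCR6+, 8.96 and 31.5 in dermal Sca1+, and 109.5, 92.0 and 46.9 in subcutaneous libraries. Each subcutaneous library was above all the others, and epidermal and dermal CCR6+ libraries overlapped at the bottom. The log2 difference from subcutaneous ILCs was -3.91 ± 0.591 for epidermal (edgeR adjusted p = 0.00109, held in all 19 alternatives) and -3.90 ± 0.703 for dermal CCR6+ ILCs (adjusted p = 0.00839, but 0.0857 without dermal CCR6+ replicate 2). Dermal Sca1+ ILCs, whose 2 libraries lay far apart, did not differ from subcutaneous (-2.04 ± 0.633, adjusted p = 0.147) or epidermal ILCs (adjusted p = 0.0695) past the threshold.

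Ptgs1, the constitutive cyclooxygenase gene, went the other way. It was at 37.2, 126 and 117 CPM in epidermal, 11.1 and 23.5 in dermal CCR6+, 21.0 and 23.4 in dermal Sca1+, and 22.1, 33.5 and 26.6 in subcutaneous libraries. It passed as highest in epidermal ILCs in all 3 comparisons, as did 0.426% of all genes, with 1.77 ± 0.449 on the log2 scale over subcutaneous ILCs (edgeR adjusted p = 0.0189). That call was lost without epidermal replicate 2 (adjusted p = 0.0699) or 3 (0.0670) or subcutaneous replicate 1 (0.0722) or 3 (0.0617). Ptgs2 made up 4.64% ± 4.67 (n = 3) of the summed TPM of the 2 cyclooxygenase genes in epidermal, 14.9% ± 9.75 (n = 2) in dermal CCR6+, 33.0% ± 17.3 (n = 2) in dermal Sca1+ and 62.6% ± 10.2 (n = 3) in subcutaneous ILCs. The highest epidermal library had a Ptgs2 share of 10.03% and the lowest subcutaneous library one of 52.2%. Epidermal replicate 1, the lowest of its group for Ptgs1, also had the lowest keratinocyte sum (2786 CPM, against 7034 and 7031), and the part of those cells was not tested.

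Hpgds encodes the haematopoietic synthase that turns the cyclooxygenase product into prostaglandin D2. It was at 5.31, 24.9 and 28.1 CPM in epidermal, 4.04 and 6.14 in dermal CCR6+, 5.98 and 10.8 in dermal Sca1+, and 12.5, 20.2 and 13.004 in subcutaneous libraries. Epidermal replicate 1 stood at the level of the dermal libraries, below the other epidermal libraries. No comparison passed, and the log2 fold change of epidermal over subcutaneous ILCs was 0.35 ± 0.585 (edgeR adjusted p = 0.750). The libraries of both dermal groups lay below each subcutaneous library. On the log2 scale the difference was -1.58 ± 0.696 for dermal CCR6+ (edgeR unadjusted p = 0.0456, adjusted p = 0.207). For dermal Sca1+ ILCs it was -0.86 ± 0.674 (edgeR adjusted p = 0.625).

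Alox5 and Alox5ap, at the start of the leukotriene branch, had the largest fitted log2 differences of the 10 genes between epidermal and subcutaneous ILCs. Alox5 encodes 5-lipoxygenase, and its rounded expected counts were 0, 0 and 1 in the epidermal, 41 and 0 in the dermal CCR6+, 207 and 280 in the dermal Sca1+, and 7094, 7283 and 10129 in the subcutaneous libraries. As CPM these were 0, 0 and 0.0495, then 2.63 and 0, then 13.2 and 24.1, then 475, 507 and 803. Epidermal and dermal CCR6+ libraries overlapped at or near 0, and the dermal Sca1+ and subcutaneous groups overlapped with no other. Against the single epidermal count, the ratio was 31000 (95% exact interval 5560 to 1220000) for subcutaneous, 943 (168 to 37300) for dermal Sca1+ and 70.7 (12 to 2860) for dermal CCR6+ ILCs, intervals that cover counting error only.

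By edgeR, Alox5 was called as higher in subcutaneous than in epidermal (adjusted p = 2.85e-05), dermal CCR6+ (-8.80 ± 1.03 for dermal CCR6+ over subcutaneous, adjusted p = 0.000857) and dermal Sca1+ ILCs (-5.00 ± 0.840, adjusted p = 0.0136). It was therefore highest in subcutaneous ILCs in all 3 comparisons, as were 0.734% of all genes. It also differed between epidermal and dermal Sca1+ ILCs (adjusted p = 0.000758) but not between epidermal and dermal CCR6+ (0.0667) or the 2 dermal groups (-3.80 ± 0.888, adjusted p = 0.119). The dermal Sca1+ call against subcutaneous ILCs was lost, among others, without either dermal Sca1+ library. When only the 2 groups compared were fitted, Alox5 likewise no longer passed as highest in subcutaneous ILCs in all 3 comparisons.

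Alox5ap encodes the 5-lipoxygenase activating protein, which hands arachidonic acid to the enzyme. It was at 0, 0 and 0.248 CPM in epidermal, 1.41 and 2.97 in dermal CCR6+, 4.51 and 10.2 in dermal Sca1+, and 40.0, 97.1 and 46.8 in subcutaneous libraries. The 4 groups did not overlap and stood in that order. Epidermal ILCs were lowest in all 3 comparisons, as were 4.15% of all genes, with log2 differences of -9.26 ± 0.978 from subcutaneous (edgeR adjusted p = 0.000112), -6.20 ± 0.943 from dermal Sca1+ (adjusted p = 0.00187) and -4.46 ± 0.952 from dermal CCR6+ ILCs (adjusted p = 0.0194). The first and the second held in all 19 alternatives, and the third was lost without epidermal replicate 2 (adjusted p = 0.0576) or dermal CCR6+ replicate 2 (0.0949) and when only these 2 groups were fitted (0.236). Dermal CCR6+ ILCs were -4.80 ± 0.892 from subcutaneous ILCs (adjusted p = 0.00964), a call lost without dermal CCR6+ replicate 1 (0.0604) or 2 (0.0561). Dermal Sca1+ ILCs did not differ from subcutaneous (-3.06 ± 0.806, adjusted p = 0.0930) or dermal CCR6+ ILCs (adjusted p = 0.472) past the threshold.

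Ltc4s encodes leukotriene C4 synthase, which joins glutathione to the leukotriene precursor. It was at 0, 0 and 1.49 CPM in epidermal, 0.193 and 0 in dermal CCR6+, 0 and 1.29 in dermal Sca1+, and 3.15, 10.2 and 8.17 in subcutaneous libraries. Each subcutaneous library was above all the others, which overlapped. No comparison passed (edgeR adjusted p = 0.209 for epidermal and 0.210 for dermal CCR6+ against subcutaneous ILCs). Over the group, 296 counts in subcutaneous against 3 in dermal CCR6+ libraries gave a ratio of 72.3 (95% exact interval 24.5 to 353, counting error only).

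On the TPM scale the order of the 10 genes differed between the layers. Alox5 came first in subcutaneous ILCs at 318 ± 74.9 TPM (n = 3), followed by Ptgir (108 ± 46.7) and Alox5ap (97.6 ± 45.05), while Ltc4s was at 21.9 ± 10.1. In epidermal ILCs Ptger4 came first at 146 ± 62.0 TPM (n = 3), followed by Cysltr1 (32.5 ± 8.92) and Ptgir (27.4 ± 11.1), with Alox5 last at 0.03 ± 0.052. Ptger4 also led in dermal CCR6+ ILCs (65.6 ± 4.41, n = 2), and Ptgir led in dermal Sca1+ ILCs (97.3 ± 37.8, n = 2).

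Lists of other cell types also differed between the groups. In the subcutaneous libraries the 12 macrophage genes summed to 4515, 7974 and 4252 CPM, with Lyz2 as the highest gene at 3193 ± 1160 CPM (n = 3) and none at 0, and all 12 were called as higher there than in epidermal ILCs. The order within the group differed: Alox5 was highest in subcutaneous replicate 3, where the macrophage sum was lowest, and Alox5ap was highest in replicate 2, where it was highest. As a percentage of the macrophage sum, Alox5 was 10.5, 6.35 and 18.9 in the subcutaneous libraries, 3.61 and 3.32 in dermal Sca1+, and 1.07 and 0 in dermal CCR6+ libraries. For Alox5ap it was 0.887, 1.22 and 1.10, then 1.24 and 1.41, then 0.576 and 1.53. The 13 mast cell and basophil genes summed to 182 to 350.2 CPM in epidermal and 194 to 292 in dermal CCR6+ libraries. Their sum was 509 to 709 CPM in dermal Sca1+ and 349 to 765 in subcutaneous libraries, which overlapped. Kit was the highest gene in each group, and Cma1, Mcpt4, Tpsab1, Ms4a2, Fcer1a, Mcpt8, Cd200r3 and Gata2 were at 0 in epidermal libraries. Kit made up most of the sum in epidermal and dermal CCR6+ ILCs (means of 250 and 197 CPM). Its means were 211 CPM in dermal Sca1+ and 290 in subcutaneous ILCs. Mean Cpa3 went from 0.0181 CPM in epidermal to 9.49 in dermal CCR6+, 144 in dermal Sca1+ and 105 in subcutaneous ILCs. For Hdc these means were 0.0232, 11.9, 51.0 and 36.6 CPM, and for Tpsb2 0.0397, 5.50, 32.1 and 21.5 CPM. Mrgprb2 did not rise this way (2.30, 0, 2.60 and 0.0232 CPM). The 8 fibroblast genes summed to 0.139 to 16.99 CPM in epidermal (Pdgfra at 0), 1227 to 2134 in dermal CCR6+, 2623 to 3789 in dermal Sca1+ and 2943 to 4460 in subcutaneous libraries. The 8 endothelial genes summed to 3.83 to 7.86 CPM in epidermal (Cdh5, Kdr, Tek and Plvap at 0), 166 to 400.5 in dermal CCR6+, 552 to 556 in dermal Sca1+ and 331 to 596 in subcutaneous libraries. All 8 genes of either list were called as lower in epidermal than in subcutaneous ILCs. The 9 dendritic and Langerhans cell genes summed to 111 to 129 CPM in epidermal and 399 to 401 in dermal CCR6+ libraries. Their sum was 464 to 770 CPM in dermal Sca1+ and 861 to 1449 in subcutaneous libraries. The part of macrophages, dendritic cells, mast cells, basophils, fibroblasts or endothelial cells in the levels of Alox5, Alox5ap, Ltc4s, Ptgs2, Ptgir and Ptger2 was not tested. That of T cells in the levels of the 10 genes was not tested either.

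**Figure D4:**
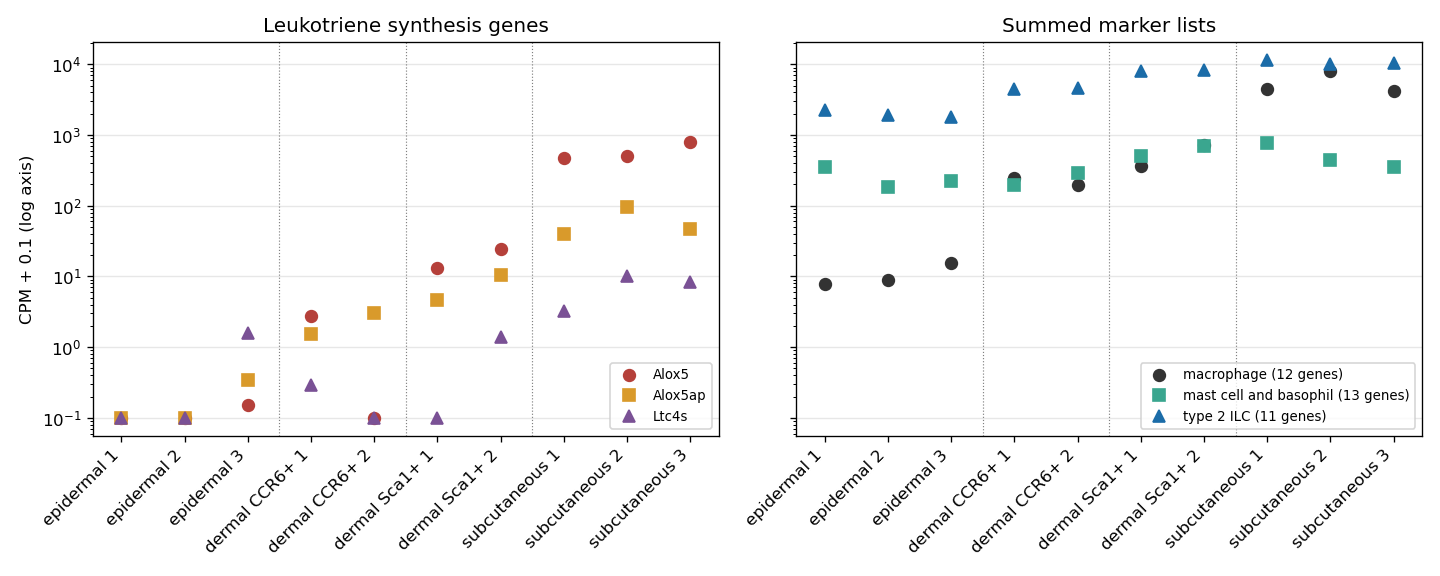
Level of Alox5, Alox5ap and Ltc4s (left) and the summed level of the macrophage, mast cell and basophil, and type 2 ILC lists (right) in each of the 10 libraries (x axis), both in CPM + 0.1 on the same log axis. Alox5ap and the macrophage sum are lowest in the epidermal and highest in the subcutaneous libraries, as is the type 2 ILC sum over a smaller range, and Alox5 is highest in the subcutaneous libraries and at or near 0 in the epidermal libraries and 1 dermal CCR6+ library.

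Among the other genes of the pathway, 49 were listed and 44 passed the filter. Between epidermal and subcutaneous ILCs 15 were called (34.1%, against 20.2% of all genes), 3 higher and 12 lower in epidermal, with a median log2 fold change of -0.38 against -0.02 over all genes. By role, 2 of 22 synthesis genes were higher and 5 lower, none of 10 receptor genes was higher and 4 were lower, and 1 of 12 transport and breakdown genes was higher and 3 were lower. In the other comparisons 4 were called between epidermal and dermal CCR6+ (9.09%, against 6.18% of all genes), 6 between epidermal and dermal Sca1+ (13.6%, against 11.4%), 4 between dermal CCR6+ and subcutaneous (9.09%, against 7.46%), and 2 between dermal Sca1+ and subcutaneous ILCs (4.55%, against 2.2%). These shares were near those of all genes. None was called between the dermal groups by edgeR (against 0.642% of all genes), and DESeq2 called 1. At an unadjusted p under 0.05, for which the share of all genes is not given here, there were 6 of the 44.

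Higher in epidermal ILCs, beside Ptgs1, were Ptgr1 and Alox12b. Ptgr1, which reduces and inactivates prostaglandins and leukotriene B4, was at 53.1 ± 29.8 against 12.6 ± 3.89 CPM (n = 3 each, edgeR adjusted p = 0.0133, but 0.0523 without subcutaneous replicate 3). Alox12b, a lipoxygenase of the epidermal barrier, was at 29.8 ± 19.999 CPM in epidermal libraries with 1 count over the subcutaneous group (ratio 1240, 95% exact interval 222 to 48900). In epidermal replicates 1, 2 and 3 Alox12b was at 6.83, 39.4 and 43.2 CPM and Ptgr1 at 19.1, 74.9 and 65.2 CPM, so that replicate 1, with the lowest keratinocyte sum, was lowest for both. The part of keratinocytes in these levels was not tested.

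Of the genes lower in epidermal ILCs, Pparg and Ltb4r1 had counts in every library. Pparg, a nuclear receptor for fatty acid derivatives, was at 2.56 ± 0.955 CPM in epidermal, 10.1 ± 1.64 in dermal CCR6+, 18.2 ± 3.74 in dermal Sca1+ and 80.4 ± 16.96 in subcutaneous ILCs, and was called in 5 of the 6 comparisons. Its log2 difference between epidermal and subcutaneous ILCs was -4.96 ± 0.386 (edgeR adjusted p = 1.87e-05). Against dermal CCR6+ ILCs the epidermal level was -1.97 on the log2 scale (adjusted p = 0.0100), lost without dermal CCR6+ replicate 1 (0.0638) and with only these 2 groups (0.165). The dermal Sca1+ difference from subcutaneous ILCs was -2.14 (adjusted p = 0.0211), lost without either dermal Sca1+ library (0.105 and 0.138) or subcutaneous replicate 1 (0.0561) or 3 (0.0853).

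Ltb4r1 was at 61.2 ± 9.01 CPM in epidermal, 97.5 ± 1.34 in dermal CCR6+, 159.8 ± 23.4 in dermal Sca1+ and 281 ± 71.5 in subcutaneous ILCs. The log2 difference from subcutaneous ILCs was -2.20 ± 0.224 for epidermal (edgeR adjusted p = 9.06e-05) and -1.53 for dermal CCR6+ ILCs (adjusted p = 0.00539, but 0.0612 without dermal CCR6+ replicate 2). Against dermal Sca1+ ILCs the epidermal difference was -1.38 (adjusted p = 0.00385). Lta4h, whose enzyme makes leukotriene B4, was at 148 ± 26.7 CPM in epidermal and 152 ± 35.2 in subcutaneous ILCs and passed in none of the comparisons.

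The remaining genes lower in epidermal than subcutaneous ILCs were at or near 0 in epidermal libraries. Without a count there were Dpep1, a dipeptidase that trims cysteinyl leukotrienes (at least 862-fold higher in subcutaneous ILCs, reckoned from a floor of 3 counts for the epidermal group), the thromboxane synthase gene Tbxas1 (at least 531-fold), Cyp4f18, which inactivates leukotriene B4 (at least 339-fold), the lipoxygenase gene Alox15 (at least 170-fold), the prostacyclin synthase gene Ptgis (at least 88.9-fold) and the lipid and peptide receptor gene Fpr2 (at least 32.4-fold). The phospholipase gene Pla2g2d (0.145 ± 0.250 against 20.5 ± 7.33 CPM), Dpep2 (0.471 ± 0.708 against 27.3 ± 3.70), Ptger3 (0.410 ± 0.378 against 11.03 ± 4.21) and Alox8 (1.96 ± 2.18 against 21.4 ± 4.41) completed the 12. Leaving out 1 library ended 5 of these calls. Ptgis lost its call without any epidermal or subcutaneous library (adjusted p up to 0.0776), Fpr2 without any epidermal or dermal Sca1+ library or subcutaneous replicate 3 (up to 0.104) and by DESeq2 (0.0858), and Alox8 without epidermal replicate 1, dermal Sca1+ replicate 1 or any subcutaneous library (up to 0.0953). Ptger3 lost it without epidermal replicate 1 or 3 or any subcutaneous library (up to 0.0774), and Alox15 without epidermal replicate 3 or subcutaneous replicate 2 or 3 (up to 0.0578). The macrophage, fibroblast and endothelial sums were likewise lower in epidermal than in subcutaneous libraries, and their part was not tested.

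Of the dermal comparisons, the 4 genes with the smallest adjusted p between epidermal and dermal CCR6+ ILCs were Dpep1 (at least 56.9-fold higher in dermal CCR6+), Pparg, Alox12b (at least 302-fold higher in epidermal) and Ptgs1 (2.43 on the log2 scale, edgeR adjusted p = 0.0231). Ptgs1 lost that call without epidermal replicate 2 (adjusted p = 0.0700) or 3 (0.0694) or dermal CCR6+ replicate 1 (0.154) and with only these 2 groups (0.0744), and Alox12b without either of the same epidermal libraries (0.0504 and 0.0514) or either dermal CCR6+ library (0.0774 and 0.0714). Dpep1 lost it with only these 2 groups (0.0642) and by limma on log2(TPM + 1) (0.123). Between epidermal and dermal Sca1+ ILCs they were Dpep1 (at least 252-fold higher in dermal Sca1+), Pparg (-2.82), Ltb4r1 and Ptgs1 (2.07, adjusted p = 0.0299), the last lost without epidermal replicate 2 (0.0829) or 3 (0.0833) or either dermal Sca1+ library (0.160 and 0.127) and with only these 2 groups (0.0541). Against subcutaneous ILCs, dermal CCR6+ ILCs had less Pparg (-2.99), Ltb4r1, Dpep1 (-3.91) and Pla2g2d, and dermal Sca1+ ILCs had less Pparg and Pla2g2d. Pla2g2d had no count in either dermal group and was at least 212-fold and 188-fold higher in subcutaneous ILCs. Its calls were lost without any 1 of the compared libraries, with adjusted p up to 0.0994 against dermal CCR6+ and 0.183 against dermal Sca1+ ILCs, and that of Dpep1 between dermal CCR6+ and subcutaneous ILCs was lost without dermal CCR6+ replicate 1 (0.0589) or 2 (0.103).

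**Figure D5:**
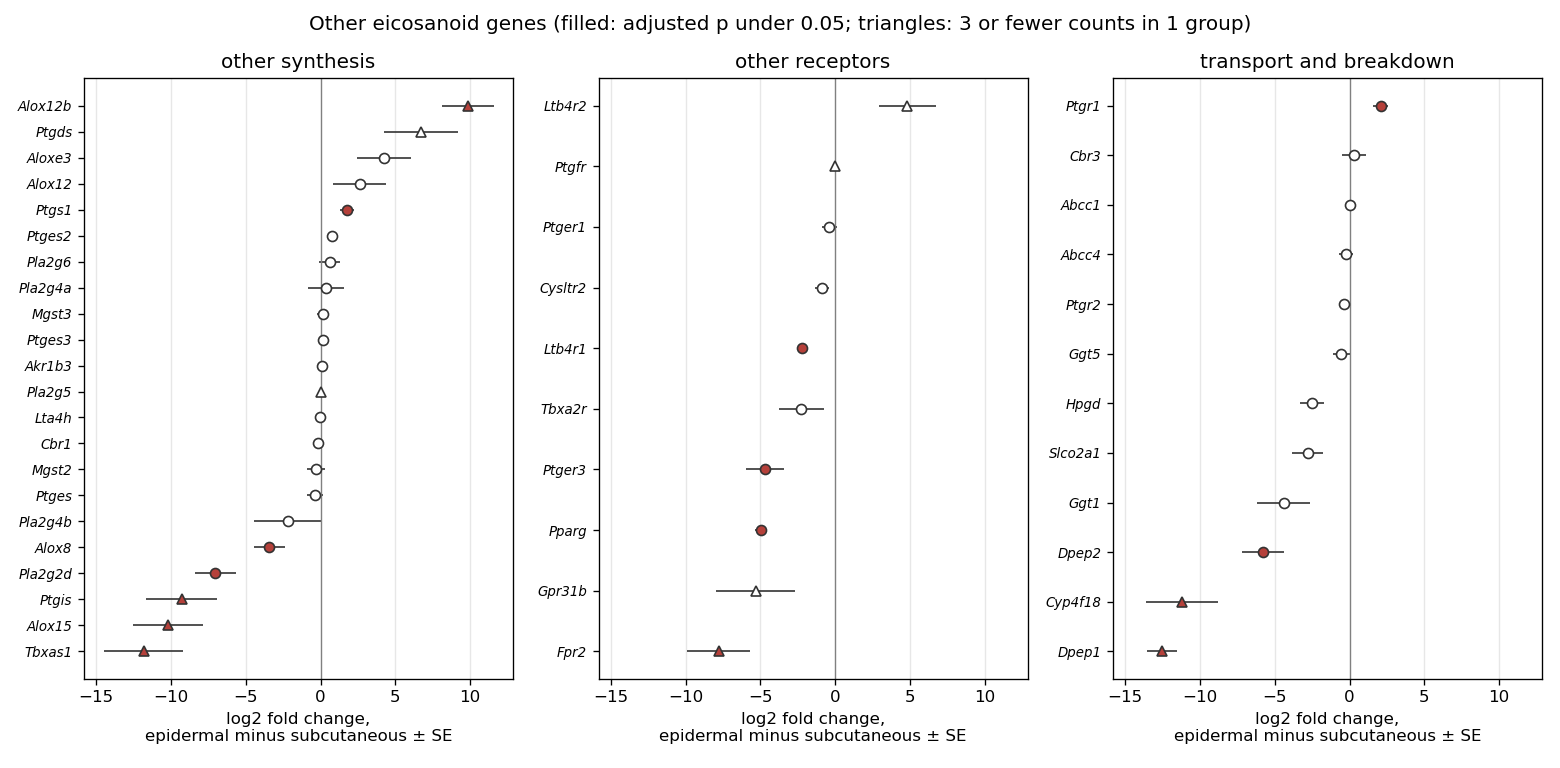
Fitted log2 fold changes of epidermal minus subcutaneous ILCs (x axis, with the standard error as a bar) for the 44 other pathway genes, by role, with filled symbols for an edgeR adjusted p under 0.05 and triangles for genes with at most 3 counts in 1 of the groups, whose fitted values are no bounds. The 3 filled symbols to the right of 0 are Alox12b, Ptgs1 and Ptgr1, and 12 are to the left.

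Across the 10 libraries, log2 CPM values of the 10 genes moved together in part. Pearson's r was 0.93 between Alox5 and Alox5ap, 0.93 between Alox5 and Ptgs2, and -0.95 between Ptger4 and Alox5ap, values given as a description, since the libraries share their groups. The genes outside the 10 with the most similar pattern to Alox5 were Cd209b (r = 0.995), C5ar1 (0.995) and C3ar1 (0.993), receptor genes of myeloid cells. For Alox5ap they were Tcn2 (0.993), the macrophage receptor gene Cd163 (0.992) and Plin2 (0.990). Spi1 (0.966) came first for Ltc4s and Notch2 (0.970) for Ptgs2. For the genes higher in epidermal ILCs, Pdgfb (0.969), Slc39a6 (0.964) and Git2 (0.957) were closest to Ptger4, and Nsg2 (0.979), St3gal6 (0.977) and Slamf1 (0.971) to Ptgdr2. Akt2 (0.980) came first for Ptgir, Adipor2 (0.963) for Ptger2, Chchd7 (0.925) for Hpgds and Tacc3 (0.916) for Cysltr1.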

How the data were processed

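RNA was measured in 10 libraries of skin ILCs prepared, per the labels' protocols, by Nextera XT from full-length cDNA of low input, which does not mark the strand. Reads were handled with Trimmomatic, STAR and RSEM on mm10, per the submitters' processing notes, and for versions and settings the sources used here give nothing. The deposited expected counts are RSEM's estimated counts per gene, in which ambiguous reads are split, and 7.2% to 8.39% of the values were not whole. The deposited TPM values are RSEM's, corrected for effective length, per the file headers. FPKM was not used.

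Libraries were grouped by title. The cell type label of the second library of either dermal sort names no marker, and the design text gives 3 replicates, of which 2 per dermal population were analysed here. Of 47643 gene IDs, 47224 matched GENCODE M21 with a symbol.

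Expected counts were rounded, and edgeR 4.0.16 (R 4.3.3) filterByExpr with a count minimum of 10 kept 16208 genes. With TMM normalization, 1 quasi-likelihood model of the 4 groups was fitted to all 10 libraries (two-sided tests, Benjamini-Hochberg adjustment over all genes kept in each of 6 comparisons, threshold 0.05). The biological coefficient of variation was 0.62. The SE is the absolute log2 fold change over the square root of F. Where the lower group had 0 counts, the fold is a bound set against 3 counts summed over the group, and a ratio to 1 to 3 counts is given with its exact 95% interval. Totals of 11627222 to 18118544 counts set the precision, and 3 counts in 1 library are 0.149 to 0.258 CPM.

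The 10 genes and all lists were chosen with earlier results of these data known. All 10 genes were named in every comparison. Of the other pathway lists, all genes called between epidermal and subcutaneous ILCs were named, and in the other comparisons the called genes among the 4 with the smallest adjusted p. Lta4h was named after its values were seen. For each of the 10 genes, up to 3 genes with the highest Pearson r of log2 CPM (prior count 2) among 8026 genes of at least 20 CPM in a group were named. Motifs were searched on both strands of RefSeq upstream windows (GRCm38.p6).

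The alternatives were RLE size factors, DESeq2 1.42.0, limma 3.58.1 on log2(TPM + 1) or log2(TPM + 0.1), only the 2 groups compared, a minimum of 5 CPM in 2 libraries, dropping the count filter, a replicate block (numbers of the titles, or runs of the sample numbers in deposited names), and each library left out.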

Additional observations from a re-analysis of the deposited data

How the results depend on the processing

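The number of the 10 genes called between epidermal and subcutaneous ILCs was 7, with 6 to 7 over the libraries left out and 6 to 9 over the other settings, and between epidermal and dermal Sca1+ ILCs it was 4, with 4 and 4 to 6. Between epidermal and dermal CCR6+ ILCs (1 gene), DESeq2 called 4, no filter 3, the filter of 5 CPM 2 and the fit of only the 2 groups 0, and leaving out a library gave 0 to 2. Between the dermal groups (0 genes), limma called 1 on log2(TPM + 1) and 1 on log2(TPM + 0.1), no filter gave 3, and leaving out a library gave 0 to 1. Between dermal CCR6+ and subcutaneous ILCs (5 genes), leaving out a library gave 1 to 5, the lowest without dermal CCR6+ replicate 2. Between dermal Sca1+ and subcutaneous ILCs (2 genes), DESeq2 called 4 and no filter 4, and leaving out a library gave 0 to 2, with 0 without either dermal Sca1+ library. The count of genes highest or lowest in a group (3) was 7 with DESeq2, 7 with no filter and 1 with only the 2 groups, and 1 to 3 with a library left out. Over all genes the number called moved too. Without an epidermal or subcutaneous library it was 2280 to 3048 between epidermal and subcutaneous ILCs. Without a subcutaneous library it was 769 to 831 between dermal CCR6+ and 188 to 218 between dermal Sca1+ and subcutaneous ILCs. Leaving out a dermal library leaves 1 in its group, and fewer of all genes were then called between that group and subcutaneous ILCs. Over the other settings it was 2667 to 4281 between epidermal and subcutaneous ILCs (3268 in the main setting). Between epidermal and dermal Sca1+ ILCs it was 1273 to 2919 (1848), and between epidermal and dermal CCR6+ ILCs 618 to 2028 (1001). It was 887 to 2319 (1209) for dermal CCR6+ and 203 to 1328 (357) for dermal Sca1+ against subcutaneous ILCs. Between the dermal groups it was 47 to 647 (104). The cause of these shifts was not tested.

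Deviations from group means correlated at -0.038 to 0.114 between libraries with the same title number and at -0.101 to 0.088 between those with different numbers. Deviations of the 2 libraries of a dermal group mirror each other, so these values cannot decide whether the replicate numbers pair the libraries. With a replicate block by title number, the genes called between epidermal and dermal CCR6+ ILCs were 2 and between dermal Sca1+ and subcutaneous ILCs 0, and with a replicate block by runs of deposited numbers they were 2 and 1. Under the block by title number the adjusted p of Ptger2 between epidermal and subcutaneous ILCs was 0.0583, and between dermal Sca1+ and subcutaneous ILCs that of Alox5 was 0.0559 and that of Ptgdr2 0.0746 (0.0655 under the block by runs). Of the named differences of the other pathway genes, the block by title number ended at least 1 call of Ptgis, Alox15, Fpr2, Alox12b and Pla2g2d, and the block by runs at least 1 of Ptgis, Fpr2, Alox8, Ptger3, Pla2g2d and Pparg.

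Only the log2 fold change of Alox5 between epidermal and dermal CCR6+ ILCs, which was not called, turned its sign. Leaving out a library gave -7.305 to 1.72, the latter (adjusted p = 0.827) without dermal CCR6+ replicate 1, the library that holds all 41 dermal CCR6+ counts of that gene. Fold changes were followed for the 10 genes with an unadjusted p under 0.05 and for the called genes of the other lists. The count of called genes of the other lists between epidermal and subcutaneous ILCs (15) was 8 to 17 with a library left out, the lowest without subcutaneous replicate 3, and 12 to 22 under the other settings. In the other comparisons, in the order given, it went from 4 to between 1 and 8, from 6 to between 4 and 16, from 4 to between 2 and 15 and from 2 to between 0 and 9, and between the dermal groups from 0 to between 0 and 6. Over all genes, 34.1% of those called between epidermal and subcutaneous ILCs were higher in epidermal, against 47.9% by limma on log2(TPM + 1), and the median log2 fold change moved from -0.02 to 0.11 on log2(TPM + 0.1).

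Of depth, 3 counts in 1 library are 0.149 to 0.258 CPM, and the ratios against groups with 1 to 3 counts have the wide intervals given with them.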
